A study of Drosophila melanogaster with 9 samples.

Results

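The Brahma (SWI/SNF) complex was followed at the mRNA level through the temporal states of intermediate neural progenitors (INPs), the transit-amplifying cells of type II neuroblast lineages in the Drosophila larval brain. Its subunit genes were chosen by name, as parts of the complex, but with earlier results of these data known. Of these, osa is found only in the BAP form of the complex, and polybromo, Bap170 and e(y)3 only in the PBAP form. The others, brm, mor, Snr1, Bap60, Bap55 and Bap111, are found in both. All 10 genes, of 16364 in the count tables, were matched by FlyBase identifier, and all 10 passed the filter on low counts. The question was whether the subunits, and Osa against the PBAP-specific subunits in particular, changed as INPs pass from D+ to Grh+ to Ey+.

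D+, Grh+ and Ey+ INPs were compared with 3 libraries each, 9 in all. INPs of wild-type wandering larvae, kept at 29°C for 5 days, carried membrane-bound tdTomato (UAS-cd8::tdTomato) under erm-GAL4, an INP driver. D+ INPs also carried a GFP fusion made by knock-in at the D locus, whereas Grh+ and Ey+ INPs carried GFP fusions of grh and ey on BAC insertions, that is, as additional gene copies. FACS gates took cells by size and by both fluorophores, at the upper end of each. The labels do not say whether libraries of a state came from separate animals, so p-values measure the spread between these libraries, which may be technical.

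SWI/SNF complexes use the energy of ATP to slide or evict nucleosomes and thereby open enhancers and promoters to transcription factors. Brahma is the ATPase, and the remaining shared subunits form the core around it. Osa, a large ARID-domain protein, defines BAP, whereas Polybromo, Bap170 and e(y)3 (also called SAYP) define PBAP. BAP does not carry the PBAP signature, nor PBAP that of BAP. In type II lineages, Osa is required for INPs to progress instead of reverting to a neuroblast-like state, and it is known to act upstream of the temporal genes D, opa and ham.

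Library depth ranged from 11266164 to 23184025 counts on genes. D, grh and ey mRNAs marked the sort: D had 341 ± 86 normalised CPM (counts scaled by library size and TMM factor) in D+ INPs (mean ± SD, n = 3) and 16.9 ± 2.64 in Ey+ INPs, grh was highest in Grh+ INPs (599 ± 127), and ey had 12.9 ± 6.39 in D+ but 513 ± 77.8 in Grh+ and 697 ± 61.8 in Ey+ INPs, the grh and ey counts including the tagged extra copies where present. The 8 neuroblast and INP markers summed to 4424 to 5303 normalised CPM in the D+ libraries, 4582 to 4831 in the Grh+ libraries and 4558 to 5325 in the Ey+ libraries, and none was at 0. Single markers nonetheless differed between states. From D+ to Ey+ INPs, erm fell from 212 ± 28.4 to 46.4 ± 10.6 and insc from 578 ± 64.9 to 282 ± 34, whereas dpn rose from 207 ± 47 to 358 ± 21.4. Of the 8 markers, 5 had a positive log2 fold change in this comparison. Neuron markers (6 of 7 listed, led by elav) summed to 229 to 1093, 369 to 787 and 678 to 4043, and 6 glia markers to 902 to 1857, 1399 to 1719 and 1225 to 1431, whereas hemocyte markers stayed at or below 20.7 and epithelium and trachea markers at or below 32.5. The names of the D+ libraries carry another flow cell identifier than those of the Grh+ and Ey+ libraries, so in any comparison with D+ INPs the run and the state cannot be told apart. In bulk RNA of sorted cells, fewer cells expressing a gene and less RNA per cell cannot be told apart.

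osa was the only subunit called changed, at the thresholds given below, and only in Ey+ against D+ INPs. In that comparison 3.95% of tested genes were called, and the osa call was lost in 9 of 21 alternative fits. The normalised CPM of osa was 933, 347 and 705 in D+ replicates 1, 2 and 3. It was 1198, 1230 and 1106 in the Grh+ replicates, and 2256, 1663 and 1410 in the Ey+ replicates. Every Grh+ library thus lay above every D+ library, and every Ey+ library above every Grh+ library, and the same order without overlap was found in RPM, which is scaled by library size alone. Such an order was seen in 1.52% of the 10193 tested genes in normalised CPM and in 0.549% in RPM, and osa was the only subunit that had it.

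**Figure D1:**
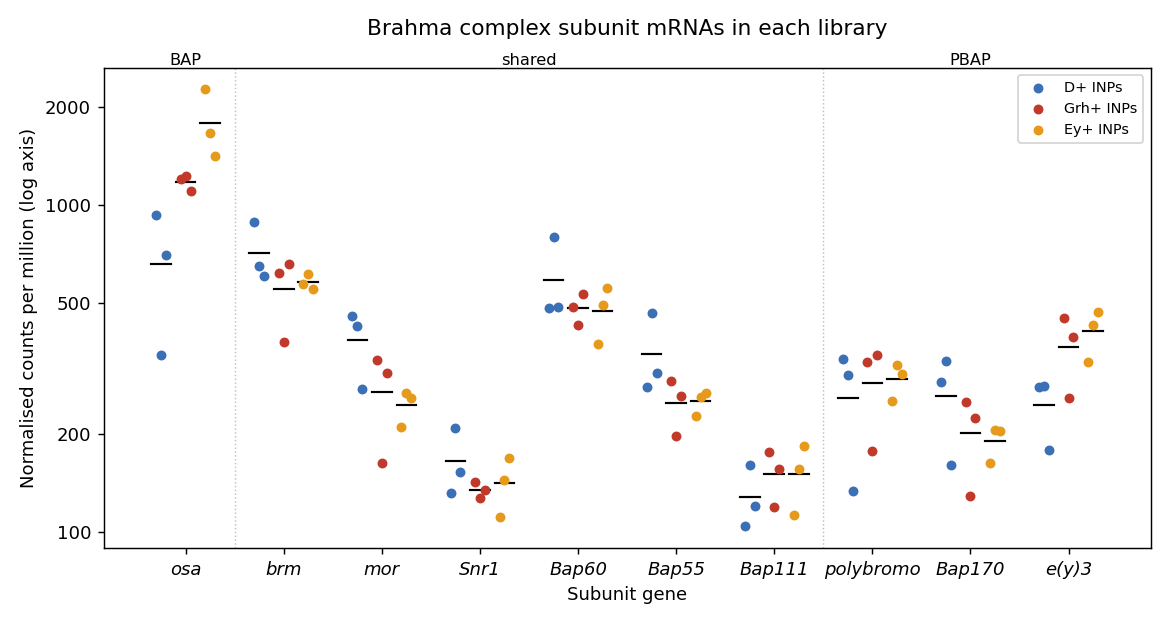
Normalised CPM (log axis) of the 10 subunit genes in each library, with the D+, Grh+ and Ey+ libraries of a gene side by side (replicates 1 to 3 from left to right) and black bars at the state means. The osa libraries lie at 347 to 933 in D+ and at 1410 to 2256 in Ey+ INPs, without overlap, whereas the libraries of most other subunits overlap between states.

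From D+ to Ey+ INPs, osa rose from 662 ± 296 to 1776 ± 434 normalised CPM (SD, n = 3), a log2 fold change of 1.42 ± 0.33 (SE) or 2.68-fold, with an adjusted p of 0.0341 (edgeR's quasi-likelihood test, Benjamini-Hochberg adjustment over all tested genes). A gene was called changed when its adjusted p was below 0.05, its log2 fold change exceeded 1 in size and its mean RPM exceeded 10 in some state. In this comparison 3.95% of tested genes were called, and osa was the only one of the 10 subunits. An unadjusted p under 0.05 was found for osa and e(y)3, against 26.5% of tested genes. The Grh+ state, at 1178 ± 64.3 normalised CPM, lay between the others, 0.83 ± 0.33 above D+ on the log2 scale (edgeR adjusted p = 0.158) and 0.59 ± 0.33 below Ey+ (adjusted p = 0.753), and neither step passed the test. A two-sided exact permutation test on the mean RPM gave p = 0.1 in each of the 3 comparisons, the smallest p that 3 against 3 libraries allow.

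The osa call was not stable when single libraries were left out. It was lost in 6 of the 9 edgeR fits that left out 1 library, with adjusted p of 0.0802 without D+ replicate 3, 0.0725, 0.0539 and 0.0699 without Grh+ replicates 1, 2 and 3, and 0.107 and 0.108 without Ey+ replicates 1 and 2. The call was kept without D+ replicate 1 (adjusted p = 0.0165), D+ replicate 2 (0.0313) or Ey+ replicate 3 (0.0464). Leaving out a Grh+ library removed none of the D+ and Ey+ libraries compared, and the log2 fold change was then 1.42 to 1.44. In all 9 fits it stayed between 1.13 and 1.78, lowest without D+ replicate 2 and highest without D+ replicate 1. DESeq2 called osa as well, at a log2 fold change of 1.46 (adjusted p = 0.000909).

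osa is also the longest of the subunit genes in exons, and the libraries differed in how counts varied with exon length. The gene (FBgn0261885) lies on chromosome 3R, from 17687818 to 17718350 on the minus strand in the BDGP6.54 annotation, with 6 transcripts and 10723 bp of exons, none shared with another gene. In each library a loess trend on exon length was fitted to the log2 CPM of each gene minus its mean over the 9 libraries. The fit used the tested genes with a known exon length, and the trend was centred on its median. Its values are thus relative to the other libraries. At the length of osa it stood at 0.14, -0.78 and -0.07 in D+ replicates 1 to 3, at -0.13, 0.32 and -0.28 in the Grh+ replicates and at 0.99, 0.17 and -0.34 in the Ey+ replicates. The library lowest in osa, D+ replicate 2, thus also had the lowest trend value, and the library highest in osa, Ey+ replicate 1, the highest. These were also the libraries with the lowest and the highest summed neuron markers, 229 and 4043 normalised CPM. Within each state, the replicates stood in the same order by osa, by trend value and by summed neuron markers. The neuron markers summed to 1093, 229 and 694 in D+ replicates 1 to 3 and to 446, 787 and 369 in the Grh+ replicates. In the Ey+ replicates they summed to 4043, 1252 and 678. The part of the neuron markers in the osa values was not tested.

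With each library's exon length trend removed and the scaling kept, osa had 849, 596 and 734 normalised CPM in the D+ replicates, 1331, 959 and 1392 in the Grh+ replicates and 1115, 1466 and 1816 in the Ey+ replicates. All Grh+ and all Ey+ libraries were still above all D+ libraries, but Grh+ and Ey+ libraries now overlapped. The Ey+ against D+ log2 fold change was 1.01 (edgeR adjusted p = 0.03), and with the trend removed without keeping the scaling it was 0.93 (adjusted p = 0.0767). Without D+ replicate 2 and Ey+ replicate 1 together it was 0.95 (adjusted p = 0.0316), so that osa passed the p threshold but not the fold threshold. The direction was upward in each of these fits.

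The 6 shared subunits did not follow osa. From D+ to Ey+ INPs their median log2 fold change was -0.30, against -0.02 over all tested genes, 1 of 6 had a positive value, and none passed the test. The median was -0.33 from D+ to Grh+ INPs (all genes: 0.00) and 0.01 from Grh+ to Ey+ INPs (all genes: -0.03), again with no call.

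brm (FBgn0000212, chromosome 3L, 15970082 to 15982869) encodes the ATPase. It had 890, 649 and 606 normalised CPM in the D+ replicates, 618, 381 and 659 in the Grh+ replicates and 572, 615 and 555 in the Ey+ replicates. The states overlapped, and the Ey+ against D+ log2 fold change was -0.30 ± 0.24 (edgeR adjusted p = 0.46).

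mor (FBgn0002783, chromosome 3R, 15968134 to 15972913) encodes the scaffold protein Moira, which holds the core together. Its D+ libraries had 457, 425 and 274 normalised CPM, its Grh+ libraries 336, 162 and 306, and its Ey+ libraries 210, 267 and 256. All Ey+ libraries were below all D+ libraries, at 0.633 times the D+ mean, but the difference of -0.66 ± 0.30 on the log2 scale did not pass the test (edgeR adjusted p = 0.19). Only 5 bp of its exons overlap another gene, on the opposite strand, which the unstranded counting cannot separate.

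Bap55 (FBgn0025716, chromosome 2R, 17429353 to 17430963), an actin-related protein, had a like pattern, with 278, 466 and 307 normalised CPM in D+, 289, 196 and 261 in Grh+ and 227, 259 and 266 in Ey+ INPs. Its Ey+ libraries were all below its D+ libraries, with a log2 fold change of -0.48 ± 0.24 (edgeR adjusted p = 0.229), and of -0.11 without D+ replicate 2 and Ey+ replicate 1. For mor and Bap55 this separation from D+ held in RPM and with the exon length trend removed, yet libraries of these states failed to overlap in 29.2% of all tested genes, so 4 such subunits of 10 (osa, e(y)3, mor and Bap55) are to be read against that share.

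The remaining shared subunits overlapped in every pair of states. Bap60 (FBgn0025463, chromosome X, 13157445 to 13159508), which links the remodeler to transcription factors, had 483, 798 and 486 normalised CPM in D+, 488, 428 and 534 in Grh+ and 375, 495 and 556 in Ey+ INPs. Snr1 (FBgn0011715, chromosome 3R, 5470926 to 5472754), the SNF5 homologue, had 132, 208 and 153, then 142, 127 and 134, then 111, 144 and 168. In both genes D+ replicate 2 was the highest D+ library, the reverse of its rank in osa, and the Ey+ against D+ log2 fold changes, -0.31 ± 0.25 and -0.22 ± 0.22, did not pass the test (edgeR adjusted p = 0.456 and 0.56).

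Bap111 (FBgn0030093, chromosome X, 9149309 to 9151976), an HMG-domain subunit, was the only shared subunit with a positive value from D+ to Ey+ INPs, 0.23 ± 0.25 on the log2 scale (edgeR adjusted p = 0.585). Its libraries had 104, 160 and 120 normalised CPM in D+, 176, 119 and 156 in Grh+ and 113, 156 and 183 in Ey+ INPs, and the states overlapped.

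The 3 PBAP-specific subunits differed among themselves, and none passed the test. Their Ey+ against D+ log2 fold changes ran from -0.45 to 0.74, with a median of 0.18. Those for Grh+ against D+ ran from -0.38 to 0.58, with a median of 0.14.

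e(y)3 (FBgn0087008, chromosome X, 19626548 to 19638369) came closest to osa. This subunit also contacts the general transcription machinery. It had 278, 279 and 178 normalised CPM in the D+ replicates, 452, 256 and 395 in the Grh+ replicates and 332, 429 and 470 in the Ey+ replicates. Its Ey+ libraries were all above its D+ libraries in normalised CPM but not in RPM, and the log2 fold change of 0.74 ± 0.27 missed the threshold (edgeR adjusted p = 0.12). The Grh+ libraries of e(y)3 were all above its D+ libraries in RPM but not in normalised CPM.

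e(y)3 is the second subunit in exon length, with 9155 bp, of which 54 bp overlap a gene on the opposite strand. With the exon length trend removed and the scaling kept, its log2 fold change was 0.33 (edgeR adjusted p = 0.714) and its D+ and Ey+ libraries overlapped, whereas without D+ replicate 2 and Ey+ replicate 1 it was 1.02 (adjusted p = 0.108). The size of its difference thus moved in opposite directions under the changes that both lowered the value of osa.

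polybromo (FBgn0039227, chromosome 3R, 24799967 to 24805259), whose product carries a row of bromodomains that bind acetylated histones, had 337, 303 and 133 normalised CPM in D+, 330, 177 and 347 in Grh+ and 251, 323 and 304 in Ey+ INPs. The states overlapped, and the Ey+ against D+ log2 fold change was 0.18 ± 0.36 (edgeR adjusted p = 0.783), turning to -0.09 with the exon length trend removed.

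Bap170 (FBgn0042085, chromosome 2R, 6636512 to 6642358), the ARID-domain subunit of PBAP, had 287, 334 and 160 normalised CPM in D+, 249, 129 and 223 in Grh+ and 163, 205 and 202 in Ey+ INPs. Its log2 value in this comparison was -0.45 ± 0.31 (edgeR adjusted p = 0.387), opposite in sign to that of osa. Both ARID-domain subunits, one per form of the complex, therefore had values of opposite sign, of which that of osa passed the test.

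**Figure D2:**
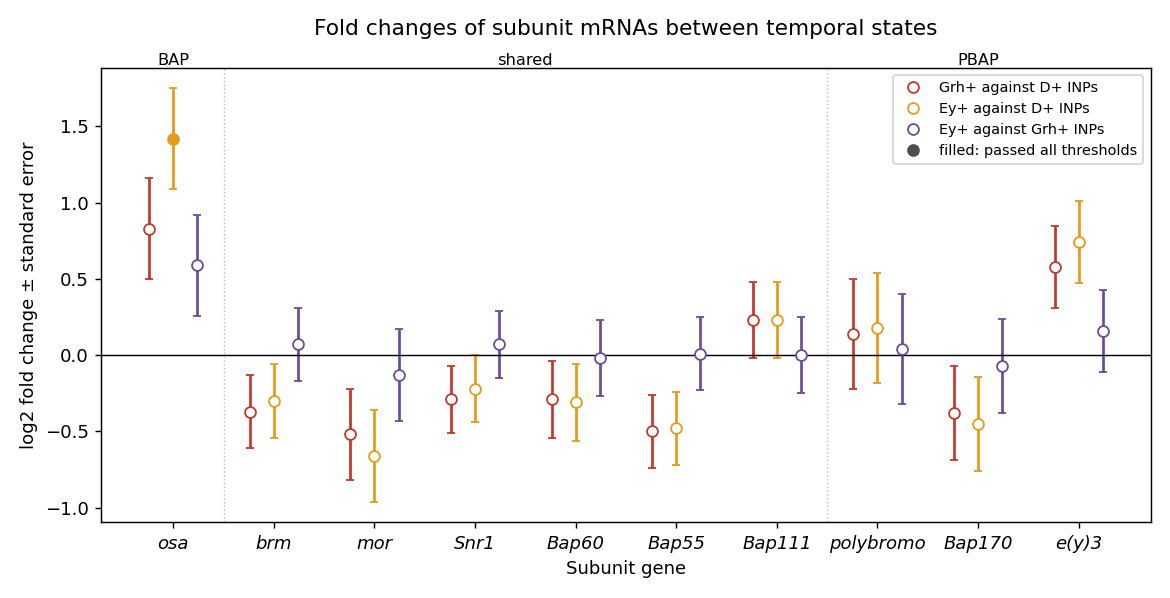
Log2 fold changes of the 10 subunits between temporal states (points) with their standard errors (bars), filled where all thresholds were passed. The value of osa for Ey+ against D+ INPs, 1.42 ± 0.33, is the only filled point, and the values of the other 9 subunits for Ey+ against D+ INPs lie between -0.66 and 0.74.

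Between D+ and Grh+ INPs, edgeR called 3.16% of tested genes and none of the 10 subunits, DESeq2 likewise called none, and 1 subunit (osa) had an unadjusted p under 0.05, against 23.8% of genes. In normalised CPM, osa was also the 1 subunit whose libraries did not overlap between these states, against 29.6% of genes. In RPM the libraries of e(y)3 did not overlap either, and the share of all genes in RPM was not taken. Between Grh+ and Ey+ INPs, edgeR called 0.235% of genes and no subunit, DESeq2 called none, and no subunit had an unadjusted p under 0.05, against 8.43% of genes. The libraries of osa did not overlap here, nor did those of 19.7% of genes, and those of the other subunits did. For the 9 subunits other than osa, the log2 fold changes in the last comparison ran from -0.13 to 0.16.

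Per kilobase of exon, the rank of osa among the subunits moved. In D+ INPs it had 61.7 ± 27.6 normalised RPKM and was the sixth of 10, after Bap60 (304 ± 93.5), Bap55, brm, Snr1 and mor, and its libraries overlapped those of mor above it and polybromo below it. In Grh+ and Ey+ INPs osa had 110 ± 5.99 and 166 ± 40.5 normalised RPKM and came after Bap60 and Bap55 only, although its Ey+ libraries overlapped those of Bap55 (170 ± 14.1) and Bap60 (245 ± 47.5), with osa above Bap60 in Ey+ replicate 1 (210 against 194), and its Grh+ libraries those of Snr1 and brm. The lowest subunit per kilobase was e(y)3 in D+ INPs (26.8 ± 6.33) and Bap170 in Grh+ (37.6 ± 11.9) and Ey+ INPs (35.8 ± 4.49). The state means of all PBAP-specific subunits were below the osa mean per kilobase, but in D+ replicate 2 osa was below their mean, at a log2 ratio of -0.58 per kilobase.

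The level of osa relative to the PBAP-specific subunits was taken within each library, where library scaling cancels. The log2 ratio of osa CPM to the mean of polybromo, Bap170 and e(y)3 was 1.64, 0.19 and 2.18 in the D+ replicates, 1.84, 2.77 and 1.82 in the Grh+ replicates and 3.24, 2.45 and 2.20 in the Ey+ replicates. The state means were 1.33 ± 1.03, 2.15 ± 0.54 and 2.63 ± 0.54 (SD, n = 3). All Ey+ libraries were above all D+ libraries, by a margin of 2.20 against 2.18 at the nearest, and the Grh+ libraries overlapped both.

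D+ replicate 2 set much of that difference. With it left out, the D+ mean was 1.91 and the difference between Ey+ and D+ INPs was 0.72 in place of 1.29 on the log2 scale, and without Ey+ replicate 1 it was 0.99. With the exon length trend removed, the state means of the ratio were 1.39, 2.21 and 2.51. The ratio is given as a description, without a test.

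The ratio was also taken against each subunit alone. It was higher in every Grh+ and every Ey+ library than in any D+ library against brm, mor, Snr1, Bap60, Bap55 and also the PBAP-specific Bap170, and overlapped between D+ and the later states against Bap111, polybromo and e(y)3. The first pattern, found for 6 of 9 subunits, was found for 38.5% of all tested genes, since osa itself did not overlap between these states. Against the mean of the 6 shared subunits the ratio was 0.94 ± 0.96 in D+, 2.17 ± 0.35 in Grh+ and 2.72 ± 0.55 in Ey+ INPs, so the step from D+ was larger than against the PBAP-specific mean, a difference that was not tested.

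**Figure D3:**
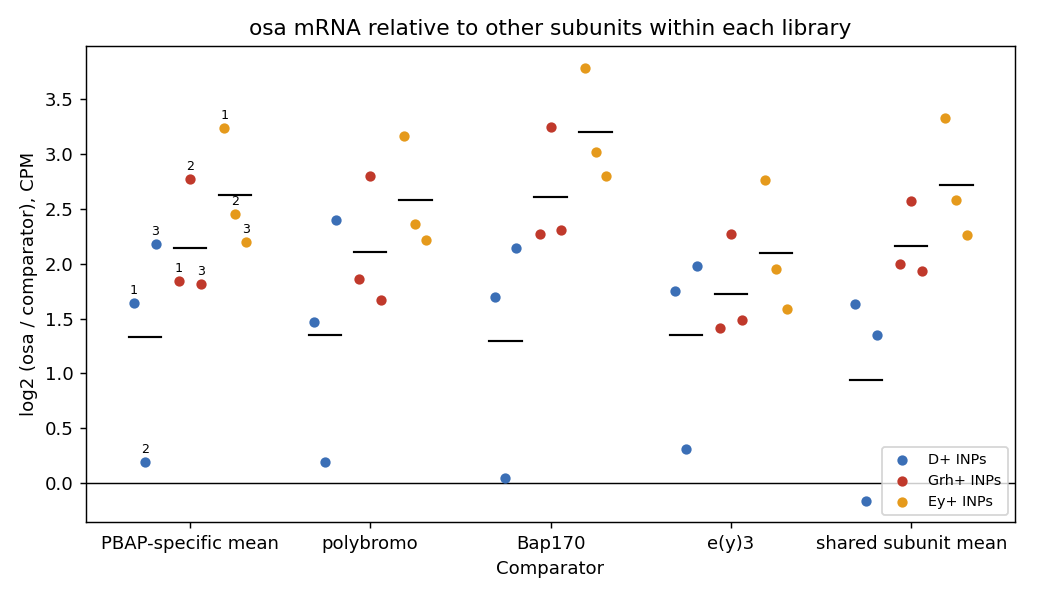
Log2 ratio of osa CPM to the PBAP-specific mean, to each PBAP-specific subunit and to the mean of the 6 shared subunits in each library (points, with replicate numbers at the first comparator), and state means (black bars). D+ replicate 2, at 0.19 for the PBAP-specific mean, is far below D+ replicates 1 and 3 (1.64 and 2.18), and the 3 Ey+ libraries lie between 2.20 and 3.24.

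Across the 9 libraries osa had negative coefficients with most other subunits. Pearson's r of log2 CPM between osa and the other subunits ranged from -0.84 (Bap55) to 0.50 (e(y)3), with a median of -0.55, whereas the 36 pairs among the other 9 subunits had a median of 0.52 and 33 positive values. Snr1 and Bap60 (0.94), mor and Bap170 (0.94) and brm and mor (0.89) varied most alike, and within PBAP, polybromo correlated with e(y)3 at 0.79 and with Bap170 at 0.72. The libraries share depth, run and length trend as well as temporal state, so these coefficients describe the libraries and carry no test. With the exon length trend removed, all 36 pairs were positive (median 0.74), and osa kept a median of -0.26 with the others (range -0.49 to 0.46).

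Of 3921 genes tested with over 50 RPM in at least 1 state, those most like osa over the 9 libraries were Pdk1, a kinase gene (r = 0.997), CG5521 (0.996), LPCAT, a lysophospholipid acyltransferase gene (0.996), Mgat4a, a glycosyltransferase gene (0.994), and Usp15-31, a deubiquitinase gene (0.992). Pdk1 had 467 ± 202, 778 ± 24.5 and 1135 ± 216 normalised CPM in D+, Grh+ and Ey+ INPs. Among the subunits, e(y)3 ranked highest in likeness to osa, at place 1265, and Bap55 lowest, at place 3361. Bap111, with r = -0.089, held place 1974 and Bap170, with r = -0.547, place 2577. Negative coefficients with osa were thus common among all ranked genes and not particular to the subunits. With the exon length trend removed, the coefficients of the 5 genes were 0.81 to 0.97.

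**Figure D4:**
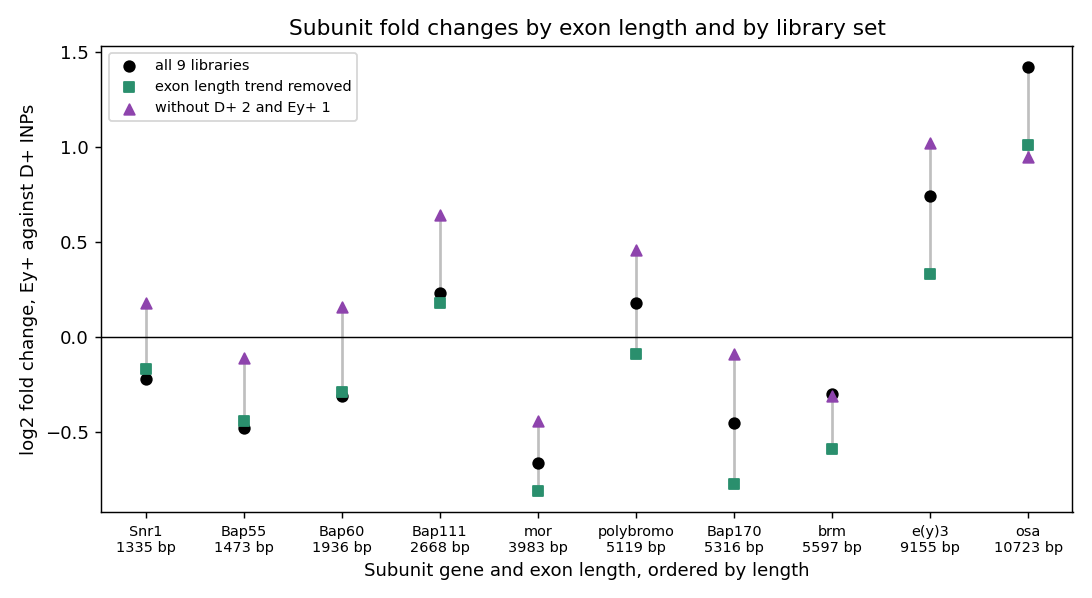
Log2 fold change of each subunit for Ey+ against D+ INPs with all 9 libraries (circles), with each library's exon length trend removed and the scaling kept (squares), and without D+ replicate 2 and Ey+ replicate 1 (triangles), with genes ordered by exon length in bp. osa moves from 1.42 to 1.01 and 0.95 and remains positive, the longest genes move most with the trend, and the short genes Snr1 and Bap60 turn from -0.22 and -0.31 to 0.18 and 0.16 without the 2 libraries.

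Further genes whose products join these complexes were Act5C, d4, BCL7-like, Brd7-9 and Bicra. Of these, 0 of 5 passed the edgeR thresholds in any comparison, where 3.16% (Grh+ against D+), 3.95% (Ey+ against D+) and 0.235% (Ey+ against Grh+) of all genes did. Bicra, which with Brd7-9 marks a further form of the complex (GBAP), had 634, 152 and 343 normalised CPM in D+, 431, 387 and 189 in Grh+ and 3985, 1152 and 593 in Ey+ INPs. Its Ey+ value rested mostly on replicate 1, and its log2 fold change against D+ INPs was 2.34 ± 0.72 (edgeR adjusted p = 0.0758).

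Among 23 genes of the ISWI, CHD, INO80 and related remodelers, 1 (YL-1) passed all thresholds against D+ INPs, a share near that of all genes (3.16% in Grh+ and 3.95% in Ey+ INPs). Etl1 in Grh+ against D+ INPs (log2 fold change -0.85, edgeR adjusted p = 0.0431) passed the p threshold but not the fold threshold. The same held for Arp8 in Ey+ against D+ INPs (0.75, adjusted p = 0.0389). YL-1, a subunit of the Domino remodeler, had 73.6, 61.1 and 69.1 normalised CPM in D+, 30.4, 32.9 and 31 in Grh+ and 32.6, 31.2 and 33.2 in Ey+ INPs. Its log2 fold changes were -1.11 in Grh+ against D+ INPs (edgeR adjusted p = 0.00423) and -1.07 in Ey+ against D+ INPs (adjusted p = 0.00371). The first call was lost without Grh+ replicate 1 (adjusted p = 0.0545) and with library size only as scaling (log2 fold change -0.96), and the other without Ey+ replicate 2 (adjusted p = 0.0547) and without D+ replicate 1, at a log2 fold change of -0.99. The medians of the 23 genes were -0.29, -0.32 and 0.04 for Grh+ against D+, Ey+ against D+ and Ey+ against Grh+ INPs, against 0.00, -0.02 and -0.03 over all genes.

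Of the genes that the study places downstream of Osa, D and opa were called lower in Grh+ than in D+ INPs. The third, ham, was not called in any comparison. D+ INPs were gated on the GFP fusion at the D locus, so lower D in the later states was set by the sort. D, which encodes a SoxB factor and named the first sort, fell from 394, 241 and 386 normalised CPM in D+ libraries to 47.6, 57.8 and 73.2 in Grh+ and 19.5, 14.3 and 17 in Ey+ libraries, and was called in each of the 3 comparisons, with log2 fold changes of -2.52, -4.33 and -1.81 (edgeR adjusted p = 0.00192, 9.48e-05 and 0.0245). The last of these calls was lost without Grh+ replicate 1 (adjusted p = 0.0835), 2 (0.0938) or 3 (0.127) and without Ey+ replicate 2 (0.208) or 3 (0.0829).

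opa, a zinc finger factor that represses D, had 665, 398 and 715 normalised CPM in D+, 276, 299 and 265 in Grh+ and 561, 527 and 462 in Ey+ INPs. It was lowest in the Grh+ state, the state in which osa was intermediate, with a log2 fold change of -1.08 against D+ INPs (edgeR adjusted p = 0.0287), whereas its difference of 0.88 for Ey+ against Grh+ INPs was not called (adjusted p = 0.209). The call against D+ INPs was lost without D+ replicate 1 (log2 fold change -0.98) or 3 (adjusted p = 0.0747), without Grh+ replicate 1 (0.148), 2 (0.0963) or 3 (0.129) and without Ey+ replicate 2 (0.0729) or 3 (0.0518). It was also lost with the 6 libraries compared alone (0.0624) and with library size only (0.0745), and with upper-quartile scaling, where the log2 fold change was -0.99.

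ham, which encodes a PRDM factor, had 676, 304 and 677 normalised CPM in D+, 657, 795 and 730 in Grh+ and 962, 828 and 642 in Ey+ INPs. Its lowest library was D+ replicate 2, as for osa, and that library was also the lowest D+ library of D and opa. The Ey+ against D+ log2 fold change of ham, 0.55 ± 0.30, did not pass the test (edgeR adjusted p = 0.269).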

How the data were processed

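D+, Grh+ and Ey+ INPs were sorted by FACS (3 libraries each), and their RNA was reverse transcribed with oligo-dT, tagged by DigiTag and sequenced as 50 bp single-end reads. Per the labels and methods, the authors filtered out ribosomal reads with BWA 0.7.12, mapped the others to FlyBase r6.12 with TopHat 2.1.1, marked duplicates by tag, masked small RNA genes and pseudogenes (bedtools 2.26.0) and counted reads per gene without strand with HTSeq 0.6.1. The deposited values are raw counts. Whether duplicates were counted is not given in the sources used here. The 5 summary lines of each table held 34.7% to 53.2% of a library's counts (42.2% over all) and were left out.

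A single quasi-likelihood fit of edgeR 4.0.16 (R 4.3.3) was made here over the 9 libraries, with TMM scaling, filterByExpr by state (10193 genes) and a coefficient per state, with Benjamini-Hochberg adjustment over all tested genes. Changed genes had an adjusted p below 0.05, a log2 fold change above 1 in size and more than 10 RPM in some state. Normalised CPM is RPM divided by the TMM factor (0.741 to 1.13), RPKM divides it further by the exon length, and ratios and correlations used log2 CPM with a prior count of 2. The common biological coefficient of variation was 0.477. No libraries were duplicates (chi-square per degree of freedom 9.97 to 520). The procedure was tested on simulated counts with changes in the Grh+ state only. These held no exon length trend, run difference or outlying library, so they do not bear on the stability of the osa call.

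Symbols matched 16208 of 16364 identifiers, and positions and exon lengths came from BDGP6.54, which is on the assembly of r6.12 but of another annotation release. No gene sequences were used here.

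Named were the 10 subunits, the remodeler genes that passed the thresholds, D, opa and ham, and the 5 genes most like osa. Bicra, Etl1, Arp8, erm, insc and dpn were named after their values were seen. The members, lists and tests were chosen with earlier results of these data known. Alternatives were other scalings (DESeq2 size factors, library size, upper quartile), other filters (none, or a minimum of 10 counts), DESeq2 1.42.0, only the 6 libraries compared, a block on replicate number, single libraries left out, an adjusted p alone, a loess trend on exon length (span 0.5) removed, other ratios, and, chosen after seeing the data, that trend removed with the scaling kept and 2 libraries left out.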

Additional observations from a re-analysis of the deposited data

How the results depend on the processing

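The upward direction of osa was kept under every alternative run, and for Ey+ against D+ INPs the call was kept in 12 of 21. It was lost with the 6 libraries compared alone (log2 fold change 1.40, adjusted p = 0.113), with the exon length trend removed (0.93) and without D+ replicate 2 and Ey+ replicate 1 (0.95), and the count of subunits changed was then 0 in place of 1. Leaving out each library gave 1.13 to 1.78 and 0 to 1 subunits changed. Without single libraries or that pair, osa ranged from 0.53 to 1.18 for Grh+ against D+ INPs and from 0.39 to 0.73 for Ey+ against Grh+ INPs. The log2 ratio of osa to the PBAP-specific subunits in Ey+ INPs was 3.20 with Bap170 alone, and per kilobase it was 0.56 in D+, 1.38 in Grh+ and 1.86 in Ey+ INPs.

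Whether replicate numbers pair the libraries was not clear. Correlations of libraries' deviations from their state means ran from -0.26 to 0.50 for the same number. For different numbers they ran from -0.54 to 0.37, and the ranges overlapped. With the replicate block, osa had 1.47 (adjusted p = 0.0447), 1 subunit was again called, the calls of opa (Grh+ against D+) and D (Ey+ against Grh+) were lost (adjusted p = 0.0698 and 0.0566), and 214, 293 and 10 genes changed in Grh+ against D+, Ey+ against D+ and Ey+ against Grh+ INPs, in place of 322, 403 and 24.

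Counts over all genes moved by over 1.5 times elsewhere too. For Grh+ against D+ INPs they were 183 with 6 libraries, 635 with an adjusted p alone and 53 to 505 without single libraries or the pair. For Ey+ against D+ INPs they were 139 with 6 libraries, 231 without the 2 libraries, 810 with an adjusted p alone and 107 to 657 without single libraries or the pair. For Ey+ against Grh+ INPs they were 96 with library size only, 50 with at least 10 counts in every library, 173 with DESeq2, 141 with 6 libraries, 40 and 53 with the exon length trend removed (scaling not kept and kept), 66 without the 2 libraries and 3 to 72 without single libraries or the pair. With library size only, the median of all genes moved to 0.16, -0.14 and -0.29, and the share of changed genes that were higher in Grh+ than in D+ INPs from 54.7% to 81.5%. With upper-quartile scaling that share was 68%, with at least 10 counts in every library 64.6% and with the trend removed 29.9%.

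Signs turned only for uncalled values. The largest of these in size with all libraries was -0.31, for Bap60 in Ey+ against D+ INPs, about the size of the median of the shared subunits (-0.30). For Grh+ against D+ INPs, Bap60 was 0.04 without the 2 libraries, Bap111 -0.06 and polybromo -0.28 with the trend removed, and polybromo -0.07 with the scaling kept. For Ey+ against D+ INPs, Snr1 and Bap60 were 0.18 and 0.16 without the 2 libraries, and polybromo -0.19 and -0.09 with the trend removed. For Ey+ against Grh+ INPs, library size only gave brm -0.19, Snr1 -0.17, Bap55 -0.24, Bap111 -0.23, polybromo -0.21, e(y)3 -0.08, YL-1 -0.23 and ham -0.15. Upper-quartile scaling gave brm -0.02, Snr1 -0.03, Bap55 -0.08, Bap111 -0.10, polybromo -0.05 and YL-1 -0.07. At least 10 counts in every library gave Bap55 -0.04, Bap111 -0.06, polybromo -0.02 and YL-1 -0.02. The 6 libraries gave Bap55 -0.02, Bap111 -0.04 and polybromo 0.00, and the block gave Bap111 -0.03. The trend removed with the scaling kept gave brm -0.04, Bap55 -0.01, Bap111 0.00, polybromo -0.02 and e(y)3 -0.04, the trend removed without it Bap60 0.10, and the 2 libraries left out Bap60 0.12 and Bap170 0.02. Without single libraries or the pair, the ranges that crossed 0 were, for Grh+ against D+ INPs, Bap60 -0.39 to 0.04 and polybromo -0.15 to 0.43, and for Ey+ against D+ INPs, Snr1 -0.36 to 0.18, Bap60 -0.43 to 0.16 and polybromo -0.11 to 0.46. For Ey+ against Grh+ INPs they were brm -0.18 to 0.24, mor -0.43 to 0.06, Snr1 -0.08 to 0.22, Bap60 -0.16 to 0.12, Bap55 -0.17 to 0.14, Bap111 -0.18 to 0.17, polybromo -0.25 to 0.23, Bap170 -0.35 to 0.11 and e(y)3 -0.08 to 0.34. The causes of these shifts were not tested.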
